A study of Ovis aries with 10 samples.

Results

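Across the endometrium of 10 ewes, 23 of 23020 genes had a mean of at least 5 FPKM, differed at least 8-fold between ewes inside both treatment groups, and had group means within 1.5 times of each other. These genes are described here as the members. The endometrium lines the uterus and is made of luminal and glandular epithelium over a stroma with vessels and resident immune cells, and in sheep it has caruncles without glands set among glandular areas. Progesterone from the ovary prepares this tissue for pregnancy by acting on the progesterone receptor, and it changes what the epithelium makes and secretes. A gene whose level differs widely between animals under 1 fixed hormone regime adds to the error of any treatment comparison made on it.

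All ewes were ovariectomized and injected with progesterone (P4) at 50 mg per day. The P4 group (n = 5) received it for 14 days. The P4+RU486 group (n = 5) received P4 over the same time, with 50 mg per day of RU486 (mifepristone, which binds the progesterone receptor and blocks it) added from day 8 to day 14. The tissue was dissected from the uterus, frozen and measured by polyA RNA-seq, and the labels do not give the ages of the ewes, their breed or which areas of the endometrium were taken. Both groups share the hormone and the removal of the ovaries, and no group without P4 was analysed here. Levels are read as FPKM, a read or fragment count scaled by gene length and library size, so genes can be compared with each other. The sequencing depth is unknown, and the error given is the spread between ewes. The deposited table pairs its identifiers with no gene names, and 0 of the 23020 identifiers matched the gene table at hand. The roles of the members are therefore not given, and the tissue could not be checked against its marker genes. Members are numbered from 1 to 23 by falling mean level.

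The members were selected on their FPKM values in these 10 ewes (level, range within each group and ratio of group means), so their spread and the ratios of their group means are descriptions and carry no test. A gene had to have a mean of at least 5 FPKM over all ewes. Within each group its highest ewe had to exceed its lowest at least 8-fold, with 0.1 FPKM added to both. The ratio of the group means, P4+RU486 over P4, had to lie between 0.67 and 1.5. The mean was high enough in 11723 genes. Of these, 87 reached 8-fold in P4, 141 in P4+RU486 and 49 in both. Among the 49, the group means lay below the window in 15 genes and above it in 11, which left the 23 members. Their own ratios ran from 0.726 in member 5 to 1.495 in member 11. Just inside the limit, the smaller of the 2 within-group ratios was 8.06 in member 14, 8.47 in member 2 and 8.80 in member 6. Just outside, the 2 nearest genes had 7.97 and 7.47.

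**Figure D1:**
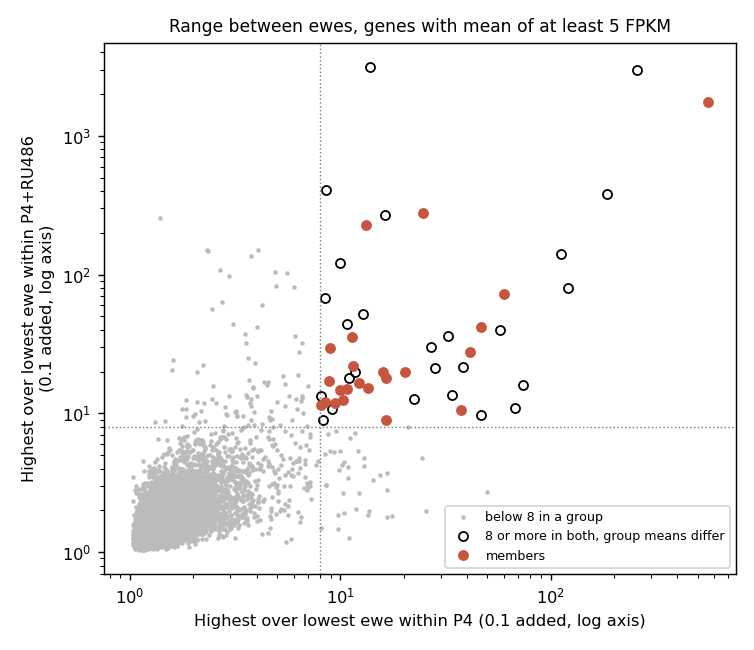
Each point is 1 of the 11723 genes with a mean of at least 5 FPKM, with the highest ewe over the lowest ewe within P4 on the horizontal axis and within P4+RU486 on the vertical axis (0.1 FPKM added, both axes logarithmic, dotted lines at 8). The 23 members are the filled points in the upper right, and the 26 open points reached 8-fold in both groups but had group means outside the window.

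The library of P4+RU486 replicate 2 stood apart from the others in its sum before any member was considered. The summed FPKM was 965174 in P4+RU486 replicate 2, against 680815 to 803425 in the other 9 ewes. This library also had the most genes at 0, 3904, followed by P4 replicate 3 with 3745 and P4+RU486 replicate 1 with 3562, against 2988 to 3415 in the other 7. The P4 ewes had a summed FPKM of 746636 ± 48022, and the P4+RU486 ewes had 778456 ± 106684 (mean ± SD of 5 ewes, two-sided exact permutation p = 0.714, adjusted p = 0.714 over 3 library measures). Genes at 0 numbered 3341 ± 272 per P4 ewe and 3477 ± 272 per P4+RU486 ewe (two-sided exact permutation p = 0.444, adjusted p = 0.667). The 100 most abundant genes held 28.8% ± 2.49 of the sum in P4 ewes and 31.8% ± 3.33 in P4+RU486 ewes (two-sided exact permutation p = 0.135, adjusted p = 0.405). None of the 3 measures was shown to differ between the groups.

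Of the 23 members, 14 varied together from ewe to ewe. To compare the members, each ewe's log2(FPKM + 1) was taken relative to the mean of its own group. A difference between the group means could therefore not create a correlation. Any differences between ewes in their response to treatment remain in these values. The 14 were joined by average linkage at a mean Pearson correlation of 0.5, and no other set reached 5 members. Their 91 pairs had correlations between 0.61 and 0.99, with a median of 0.91, and 47 of the pairs were at 0.9 or more. Over all 253 pairs of members the median was 0.46, and 64 pairs were negative. In each group taken alone, the median correlation of the 14 was 0.89 over the 5 P4 ewes and 0.93 over the 5 P4+RU486 ewes. The 14 were joined on the deviations of these same ewes, so high values within each group follow in part from that choice. These correlations are over 10 ewes that share 1 library for all genes, and they are given as a description.

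**Figure D2:**
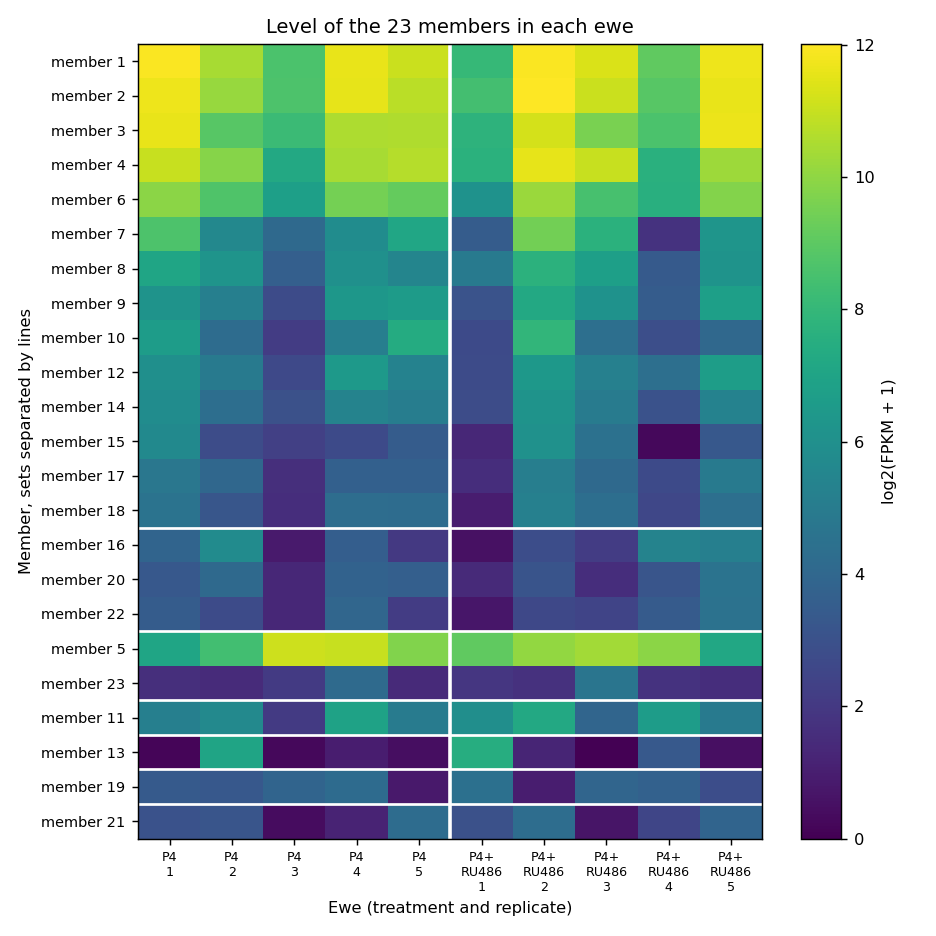
Rows are the 23 members, columns are the 10 ewes (P4 left of the white line, P4+RU486 right), and colour is log2(FPKM + 1). In the top 14 rows, the set that varies together, P4 replicate 3 and P4+RU486 replicates 1 and 4 are darker than the other ewes, and the lower 9 rows follow other orders.

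The 14-gene set includes the most abundant members. Member 1, ENSOARG00000000857, had the highest mean of all members, 2148 FPKM, and was number 42 in abundance among all genes. Its P4 ewes, replicates 1 to 5, were at 3922, 1372, 392, 3092 and 2115 FPKM. Its P4+RU486 ewes were at 267, 3907, 2534, 538 and 3340 FPKM. The groups overlapped almost completely, and P4 ewes averaged 2179 ± 1389 FPKM while P4+RU486 ewes averaged 2117 ± 1642 FPKM (mean ± SD of 5 ewes each). Within P4 the highest ewe was 9.99-fold above the lowest, and within P4+RU486 14.6-fold.

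Member 2 followed member 1 almost ewe by ewe, at 3391, 1131, 400.3, 3029 and 1727 FPKM in P4 and at 344, 4127, 2111, 478 and 3146 FPKM in P4+RU486. Their ratio stayed between 0.775 and 1.22 in the 10 ewes, while each of them moved more than 8-fold, and their correlation of 0.99 was the highest of all pairs in the set. Whether they share reads, as near-identical gene copies can, was not tested. Member 3 was at 3122, 481, 289, 1502 and 1555 FPKM in P4 and at 218, 2447, 779.7, 384 and 3266 FPKM in P4+RU486. Member 4 was at 2038, 904, 151, 1401 and 1651 FPKM in P4 and at 201, 3022, 2049, 197 and 1213 FPKM in P4+RU486. In these 3 genes as in member 1, the lowest levels were those of P4 replicate 3 and of P4+RU486 replicates 1 and 4. Member 6 showed the same 3 ewes lowest at a lower level, with 108 FPKM in P4 replicate 3 and 68.2 and 189 FPKM in P4+RU486 replicates 1 and 4, against 366 to 1165 FPKM in the other 7.

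Member 14, ENSOARG00000017094, had the highest mean correlation with the rest of the set and represents its shape at a moderate level. In P4 it was at 56.2, 19.2, 6.89, 40.8 and 32.95 FPKM, and in P4+RU486 at 5.95, 69.9, 31.4, 7.08 and 39.4 FPKM. P4 ewes averaged 31.2 ± 19.1 FPKM and P4+RU486 ewes 30.8 ± 26.4 FPKM (mean ± SD of 5 ewes each), and the ranges overlapped. Member 2 was between 52.4 and 79.8 times as high as member 14 in every ewe, the steadiest ratio of any pair in the set. Across the set such ratios were not all steady. Member 12 over member 15, the least steady pair, ran from 1.22 to 106. The 106 came from P4+RU486 replicate 4, where member 15 was at 0.19 FPKM.

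Within the 14-gene set, members 7 and 15 had the steepest differences between P4+RU486 ewes, with 0.1 FPKM added to both ends of each range. Member 7 was at 407, 48.1, 16.4, 56.5 and 139 FPKM in P4 and at 10.35, 695, 202, 2.39 and 74.8 FPKM in P4+RU486, a 279-fold range within P4+RU486. Member 15 was at 51.3, 5.82, 3.79, 5.45 and 10.4 FPKM in P4 and at 1.56, 65.5, 21.1, 0.19 and 8.91 FPKM in P4+RU486, a 226-fold range. The range of member 15 rests on the 0.19 FPKM of P4+RU486 replicate 4, a value near 0. Members 7 and 15 were both highest in P4+RU486 replicate 2 and P4 replicate 1 and lowest in P4+RU486 replicate 4. Member 10 was at 97.8, 18.0, 3.44, 33.8 and 165 FPKM in P4 and at 5.57, 239, 20.2, 6.32 and 15.85 FPKM in P4+RU486. It reached 46.6-fold in P4 and 42.1-fold in P4+RU486.

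The remaining 5 genes of the set, members 8, 9, 12, 17 and 18, had means between 15.1 and 75.5 FPKM. Member 9 was at 71.9, 35.0, 5.79, 79.8 and 94.3 FPKM in P4 and at 7.43, 149, 67.6, 10.3 and 110.3 FPKM in P4+RU486. Member 18, the least abundant of the set, was at 22.9, 8.26, 1.93, 18.6 and 17.8 FPKM in P4 and at 0.93, 36.3, 19.1, 4.86 and 19.9 FPKM in P4+RU486. Members 8, 12 and 17 ran from 11.4 to 133, from 5.20 to 87.4 and from 2.05 to 26.2 FPKM in P4. In P4+RU486 they ran from 9.53 to 212, from 5.60 to 103 and from 1.95 to 33.7 FPKM.

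The whole set shared the same 3 low ewes, while the order within the low and the high ewes differed between genes. In 14 of its 14 genes, P4 replicate 3, P4+RU486 replicate 1 and P4+RU486 replicate 4 were below each of the other 7 ewes. P4 replicate 3 was the lowest P4 ewe in 14 of 14, and the lowest P4+RU486 ewe was replicate 1 in 10 and replicate 4 in 4. At the other end, P4 replicate 1 was the highest P4 ewe in 11 and P4+RU486 replicate 2 the highest P4+RU486 ewe in 12. Summed over the set, the level was 14357, 4562, 1398, 10149.9 and 8176 FPKM in the P4 ewes and 1166, 16252, 8362, 1853 and 12311 FPKM in the P4+RU486 ewes. As a share of all FPKM in the library, the set took from 0.174% to 1.98% in P4 and from 0.152% to 1.75% in P4+RU486.

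**Figure D3:**
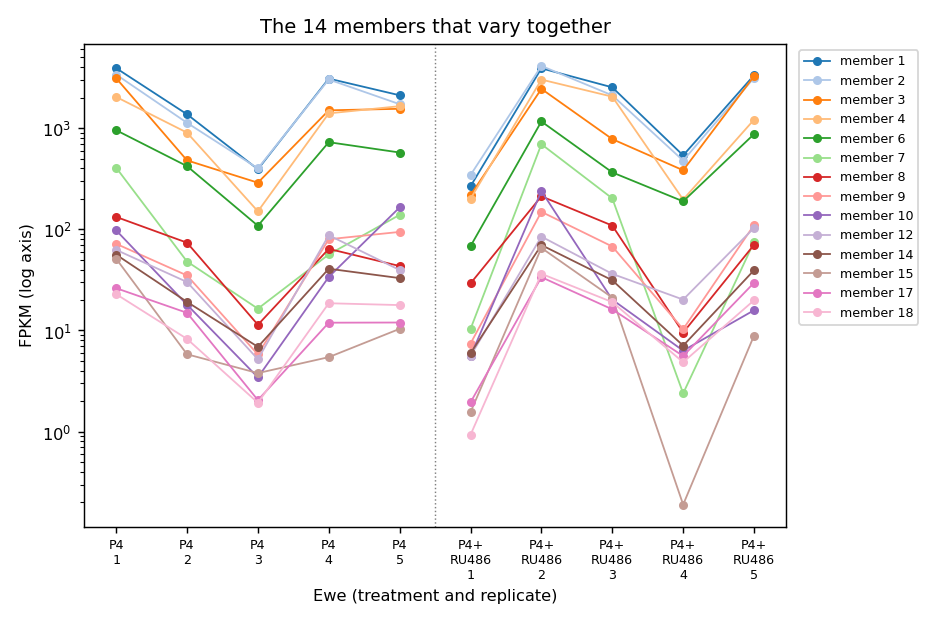
FPKM of the 14 members that vary together (logarithmic axis) in the 5 P4 and the 5 P4+RU486 ewes, with 1 colour for each gene and lines drawn only to guide the eye, since ewes have no order. In all 14 genes P4 replicate 3 and P4+RU486 replicates 1 and 4 lie below the other 7 ewes.

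The ewes that set the range of the 14 genes were in part those with the most genes at 0. P4 replicate 3, lowest in all 14, had the second highest number of genes at 0, and P4+RU486 replicate 2, highest in 12, had the highest number and the largest sum. P4+RU486 replicate 1, lowest of its group in 10 of the 14, had the third highest number of genes at 0, 3562, and the second highest share of the 100 most abundant genes, 31.7%. P4+RU486 replicate 4, among the 3 lowest ewes in all 14, had 3233 genes at 0, a sum of 731286 FPKM and a share of 30.2%, each within the range of the other ewes. The part of library depth or RNA quality in the pattern was not tested. Without P4 replicate 3 the within-P4 ratio of the 14 genes fell from a median of 11.9 to 2.91, and 3 of the 14 still reached 8-fold. Without P4+RU486 replicate 1 the median ratio within P4+RU486 was 9.19, against 17.6 with all 5 ewes, and 9 of the 14 still reached 8-fold there. Without P4+RU486 replicate 2 that median was 13.6, and 12 of the 14 still reached 8-fold. With each ewe left out in turn, the median correlation over the 91 pairs was between 0.88 and 0.92. The lowest pair was then between 0.53 and 0.72. Without P4 replicate 3 and P4+RU486 replicate 2 together, the median was 0.86 and the lowest pair 0.37. The 14 were joined by this same correlation, so a high median follows in part from that choice. Their 3 low ewes were not left out together, so how far the correlation rests on them was not tested.

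Few other genes followed the profile of the 14, taken as the mean of their deviations. Among 11709 other genes with a mean of at least 5 FPKM, 9 correlated with it at 0.9 or more and 7 at -0.9 or less. At 0.8 the counts were 75 and 59. Genes at 0.8 or more had a median smaller within-group ratio of 1.497, close to the 1.36 of all genes with a mean of at least 5 FPKM, so most of those that followed the profile did so with small changes. Of the 9 closest, 1 reached 8-fold in both groups and was left out of the members by its group means alone. It was at 134, 29.3, 0.42, 8.49 and 32.1 FPKM in P4 and at 0, 300.1, 41.9, 0.87 and 42.0 FPKM in P4+RU486, with the same 3 ewes lowest, and its group means had a ratio of 1.88. Another 3 of the 9 exceeded 12-fold within P4+RU486 and reached between 6.34-fold and 6.56-fold within P4. The profile was not the main axis of variation between ewes of the same group. Over 14866 expressed genes that axis held 31.2% of the within-group variance and had a correlation of 0.07 in size with the profile, against 0.76 for the second axis (19.4% of the variance) and 0.52 for the third (13.0%).

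A smaller set of 3 genes, members 16, 20 and 22, had pairwise correlations between 0.80 and 0.82. Member 16, ENSOARG00000010828, had the highest mean correlation within it. In P4 it was at 13.55, 54.9, 0.82, 11.0 and 2.99 FPKM, and in P4+RU486 at 0.46, 6.04, 3.38, 40.5 and 35.1 FPKM. P4 ewes averaged 16.6 ± 22.0 FPKM and P4+RU486 ewes 17.1 ± 19.1 FPKM (mean ± SD of 5 ewes each). Like the 14-gene set it was low in P4 replicate 3 and P4+RU486 replicate 1, but it was high in P4+RU486 replicate 4, where the 14 were low. Its correlation with their profile was 0.27.

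Member 20 was at 9, 16.5, 1.51, 12.5 and 11.5 FPKM in P4 and at 1.70, 7.66, 1.97, 8.04 and 22.5 FPKM in P4+RU486. Member 22 was at 10.3, 5.70, 1.55, 14.6 and 3.36 FPKM in P4 and at 0.64, 5.06, 4.59, 9.96 and 21.9 FPKM in P4+RU486. Both were lowest in P4 replicate 3 and P4+RU486 replicate 1 within their groups and highest in P4+RU486 replicate 5. Members 20 and 22 had correlations of 0.53 and 0.54 with the profile of the 14. Against single genes of the 14, member 20 ran from 0.13 (member 15) to 0.77 (member 12). Member 22 ran from 0.18 (member 15) to 0.82 (member 12), the latter as high as within its own set. The border between the 2 sets was therefore not sharp. Without P4+RU486 replicate 2, or without P4+RU486 replicate 4, the largest set held 17 members.

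The other 6 members followed neither set. Member 13, ENSOARG00000016318, had the largest within-group ratios of all members and was nearly absent from most ewes. It was at 0.13, 128, 0.18, 0.95 and 0.35 FPKM in P4 and at 176, 1.36, 0, 9.39 and 0.39 FPKM in P4+RU486. A single ewe of each group was thus above 100 FPKM, and 1 more, P4+RU486 replicate 4, was above 2 FPKM. With 0.1 FPKM added to both, the ratio of highest to lowest ewe was 559 in P4 and 1756 in P4+RU486. Both ratios depend on the added 0.1 FPKM, because P4 replicate 1 is at 0.13 FPKM and P4+RU486 replicate 3 is listed at 0. Both ewes with the high level were low or intermediate in the 14-gene set, and the correlation with its profile was -0.52.

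Member 23 had a similar shape at a lower level, with 16.55 FPKM in P4 replicate 4 and 24.4 FPKM in P4+RU486 replicate 3, against 1.66 to 3.11 FPKM in the other 8 ewes. Member 19 had the opposite shape. It was nearly absent from 1 ewe of each group, at 0.76 FPKM in P4 replicate 5 and 0.94 FPKM in P4+RU486 replicate 2, while the other 8 lay between 6.22 and 20.7 FPKM. The 2 ewes at the low end of member 19 were not low in the 14-gene set, with which it had a correlation of -0.58.

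Member 5 was the most abundant member outside the 14-gene set. It was at 133, 327, 2189, 2043 and 861 FPKM in P4 and at 542, 1070.4, 1311, 962 and 146 FPKM in P4+RU486. P4 replicate 3, lowest in all of the 14, was its highest ewe, and P4 replicate 1, highest in 11 of the 14, was its lowest. It was joined with member 23 as a pair, at a correlation of 0.53. Its correlation with the profile was -0.30, so the order was not simply reversed. P4 replicate 3 was thus low in most abundant members and high in this one, and the reason was not tested.

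Member 11 was at 34.9, 49.9, 3.05, 119 and 30.4 FPKM in P4 and at 60.4, 151, 14.2, 100.1 and 28.7 FPKM in P4+RU486. Its P4 range of 37.7-fold came from P4 replicate 3, the 1 ewe below 14 FPKM. Member 21 was at 7.24, 8.09, 0.34, 1.30 and 18.2 FPKM in P4 and at 7.00, 18.7, 0.58, 4.64 and 13.8 FPKM in P4+RU486. It was low in P4 replicates 3 and 4 and in P4+RU486 replicate 3. P4 replicate 4 and P4+RU486 replicate 3 were not among the low ewes of the 14.

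**Figure D4:**
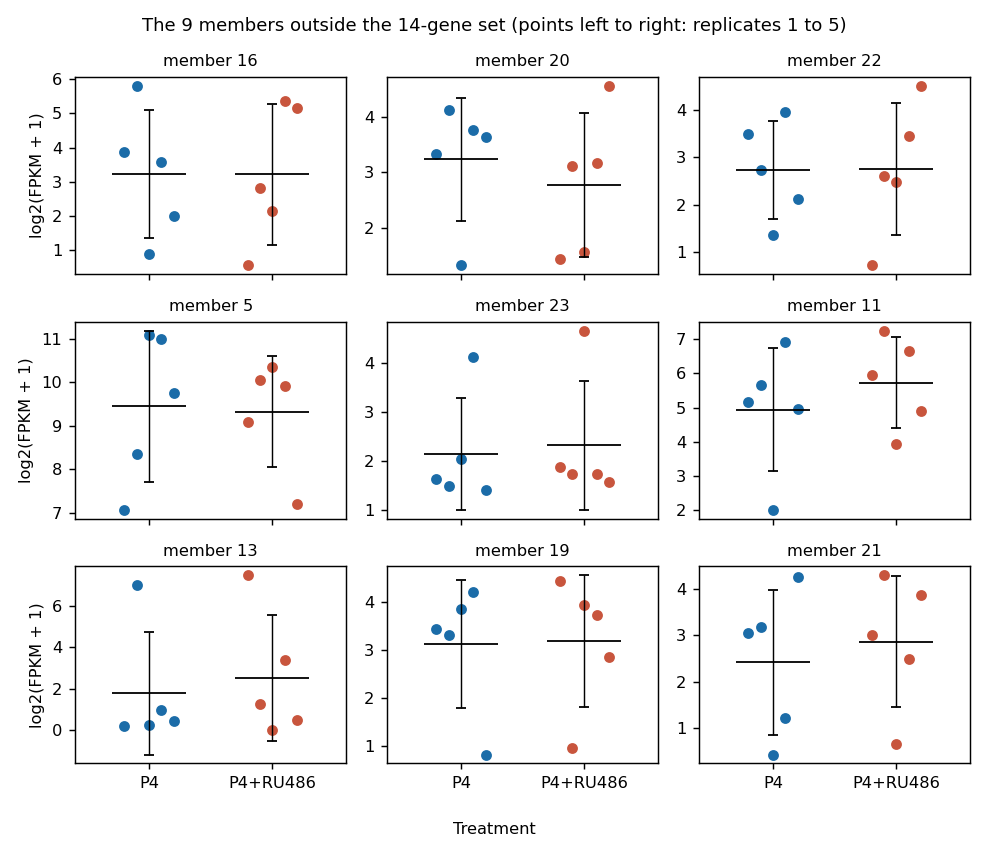
Each panel is 1 of the 9 members outside the 14-gene set, with log2(FPKM + 1) of each ewe as a point (P4 blue, P4+RU486 red), the group mean as a line and the SD as the error bar (n = 5 each). Members 13 and 23 show 1 high ewe in each group, and member 19 shows 1 low ewe in each group.

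In most members the largest gap between ewes lay below the middle. The largest gap between neighbouring ewes on the log2 scale had 7, 8 or 9 of the 10 ewes above it in 16 of 23 members. In these 16 the gap took from 0.20 (member 22) to 0.52 (member 19) of the whole range. Whether the ewes fall into 2 distinct levels was not tested. In 5 members, 2 or 3 ewes stood above the largest gap (members 10, 13, 15, 16 and 23). Counted over all 23 members, P4 replicate 3 was the lowest P4 ewe in 19 (82.6%) and P4+RU486 replicate 1 the lowest P4+RU486 ewe in 13 (56.5%). Over the 11723 genes with a mean of at least 5 FPKM, these ewes were lowest in 31.1% and 17.8%. P4 replicate 1 was the highest P4 ewe in 11 members (47.8%, against 17.0% of the 11723 genes), and P4+RU486 replicate 2 the highest P4+RU486 ewe in 14 (60.9%, against 33.8%). Most of these counts come from the 14 genes that vary together, so they are not 23 separate observations.

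The rule also sets how little these data say about RU486 for the members. Of the 23, 0 were called in either direction by limma (adjusted p under 0.05, Benjamini-Hochberg over 23019 genes), and 0 had an unadjusted p under 0.05. Over all genes tested 2.42% were called, but the rule limited the ratio of the group means, so the count of 0 says nothing about the members. The limma log2 fold changes, P4+RU486 minus P4, ran from -0.71 in member 10 to 0.79 in member 11, and 9 were above 0 and 14 below. Their median was -0.09, against -0.000749 over the 11723 genes with a mean of at least 5 FPKM. The comparison gives the width of the error, which follows from the spread the members were selected on. The standard error of the log2 fold change had a median of 0.86 in the members, between 0.68 and 1.69, and a median of 0.15 in the 11723 genes. The 95% interval reached a median of 1.92 to either side of the estimate, against 0.33 in the 11723 genes. For member 1 the estimate was -0.31, with a 95% interval from -2.26 to 1.64 (SE 0.88, adjusted p = 0.888 by limma), so neither a 3-fold change up nor one down lies outside its interval. For member 13 the interval ran from -3.02 to 4.51 around 0.75 (SE 1.69, limma adjusted p = 0.855). The median within-group SD of log2(FPKM + 1) was 1.525 in the members and 0.243 in the 11723 genes, a difference that the rule itself fixed.

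**Figure D5:**
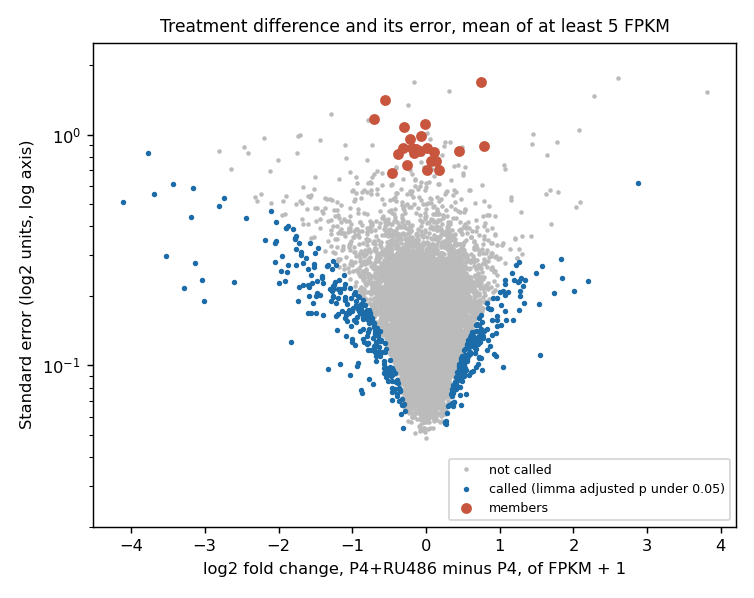
Each point is 1 of the 11723 genes with a mean of at least 5 FPKM, with the limma log2 fold change (P4+RU486 minus P4, of FPKM + 1) on the horizontal axis and its standard error on the vertical axis (logarithmic). The 23 members, as filled red points, lie at standard errors between 0.68 and 1.69, above nearly all other genes, and at fold changes between -0.71 and 0.79.

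Which genes met the rule depended on single ewes. Without P4 replicate 3 the rule found 10 genes, 9 of them among the 23, and only 3 of these in the 14-gene set. Without P4 replicate 1 it found 13, all of them members but only 5 of the 14-gene set. Without P4+RU486 replicate 1 it also found 13, of which 11 were members and 6 in the 14-gene set. Without P4+RU486 replicate 2 it found 17, of which 14 were members and 10 in the 14-gene set. With P4 replicate 3 and P4+RU486 replicate 2 both left out, 8 genes met the rule, 5 of them members and 0 of the 14-gene set. When the 23 members were grouped anew in each of these settings, all 14 genes still fell together in the largest set.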

How the data were processed

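PolyA RNA of the endometrium of 10 ewes (5 P4, 5 P4+RU486, by the treatment label) was measured. The table deposited by the authors gives 1 value per gene and ewe, rounded to 2 decimals, with no unit in its header. The values are read here as FPKM deposited by the authors, because column sums differ and the smallest values differ between genes, although TPM with genes removed could look the same. The adjusted p-values of the authors' own comparison were deposited with them, under a header that names edgeR. Oar_v3.1, edgeR, featureCounts 1.5.0, HISAT2 2.0.3 and cutadapt 1.11 stand in the submitters' processing notes with no role. Annotation, filters and library scaling were not given in the sources used here. Depth is unknown, so no counting interval is given.

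The members and lists were chosen with earlier results of these data known. The rule does not use the authors' adjusted p. Calls use limma 3.58.1 in R 4.3.3 on log2(FPKM + 1), with a trend, over 23019 genes (1 further gene was at 0 throughout). Fold changes on this scale understate changes of low genes. On simulated data for this comparison (23019 genes), limma recovered 73% of 100 genes with a log2 change of 1 and 97% of 100 with a log2 change of 2, with 10 false calls. The simulated noise was independent between genes, and the changed genes were drawn from all those with a mean log2 of at least 1. The median standard error was 0.86 in the members and 0.15 in the 11723 genes, so these shares do not apply to the members. Correlations use deviations from the group mean, joined by average linkage. Named by a rule stated with the design were the member of highest mean, the member whose smaller within-group ratio is largest, and the member of highest mean correlation in each of the 2 largest sets. Other members are given by number because identifiers without names cannot be interpreted, and 16 lists of marker genes could not be applied.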

Additional observations from a re-analysis of the deposited data

Results flagged for a closer look

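Each of 56 groups of 5 values (the members on the log2 scale, and 5 library measures) was checked by Dixon's ratio for a value far from the others, and 6 such groups were found, where chance gives about 1 in 20. Since members were chosen for a wide range, a far ewe among them is no separate finding. Member 13 was at 128 FPKM in P4 replicate 2, against 0.13 to 0.95 FPKM in its group. Member 23 was at 16.55 FPKM in P4 replicate 4, against 1.66 to 3.11 FPKM, and at 24.4 FPKM in P4+RU486 replicate 3, against 1.96 to 2.69 FPKM. Low ewes were P4 replicate 5 for member 19, at 0.76 FPKM against 8.88 to 17.3 FPKM, and P4 replicate 3 for member 20, at 1.51 FPKM against 9 to 16.5 FPKM. The summed FPKM of P4+RU486 replicate 2 was 965174, against 704242 to 765735 in its group.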

How the results depend on the processing

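The number of genes meeting the rule moved from 23 to 65 with a within-group ratio of at least 4, to 8 with at least 16, to 67 with a mean of at least 1 FPKM and to 14 with a narrower window for the ratio of group means. Leaving out each ewe in turn gave 10 to 23, and P4 replicate 3 and P4+RU486 replicate 2 left out together (chosen after seeing the data) gave 8. It was 19 to 22 with a mean of at least 10 FPKM, with 1 FPKM added, with median-ratio rescaling, with equal column sums and with quantile normalisation (the last chosen after seeing the data). The largest co-varying set held 14 to 17 members in the 15 settings run. The number of limma calls over all genes moved from 557 to 1312 with array weights, and to between 181 and 1024 with each ewe left out. By the authors' adjusted p, which comes from edgeR and not from limma, the number was 1611. In these settings 0 members were called, with a lowest adjusted p of 0.172 in the authors' deposited table and between 0.3895 and 0.711 by limma. No paired analysis was possible because the treatment groups held different ewes. The labels give no replicate numbers, and the numbers used here pair no ewes. Where a count moved under a threshold, the threshold itself sets it, and for the ewes left out and array weights the cause was not tested. Without depth, low values such as 0.19 FPKM in member 15 carry an unknown counting error.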
